A study of Homo sapiens with 4 samples.

Results

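The 8 genes described here comprise 6 enzymes of the pentose phosphate pathway, PGLS, PGD, RPIA, RPE, TALDO1 and TKT, with the cytosolic malic enzyme ME1 and the cytosolic isocitrate dehydrogenase IDH1. They were chosen by symbol, each matched 1 of the 57773 gene identifiers in the count tables, and all 8 had enough reads to be tested. Polyadenylated RNA was sequenced from MIA-PaCa2, a human pancreatic carcinoma cell line grown in DMEM with fetal calf serum, in 2 groups of 2 libraries. The 2 AMG510-resistant libraries came from cells selected in rising concentrations of AMG510 (sotorasib), a targeted inhibitor that dampens RAF-MEK-ERK signalling, over 2 months to a final 5 µM. The 2 untreated libraries came from cells labelled as untreated. Nothing in the labels says whether the replicates of a group were selected or cultured apart. Whether the drug was in the medium at harvest is not given in the labels, and for resistant replicate 2 the tag for treatment has AMG511 where the title has AMG510re. That library was kept as resistant.

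Libraries held between 30146559 and 38052558 expected counts. Across tested genes Pearson's r of log2 CPM (reads per gene scaled to TMM-normalised library size) was 0.98 between the resistant libraries, 0.985 between the untreated ones and 0.91 to 0.931 across the groups (genes are not independent replicates). KRT8, KRT18, KRT19 and EPCAM were above 1 CPM in every library and KRT7 was not. CDKN2A, which this line is known to lack, had 0 counts throughout. The 8 matched markers of other cell types summed to 10.6 and 3.08 CPM in resistant libraries, against 8.37 and 4.33 CPM in untreated ones, with PRSS1 and INS at 0 in every library. One of them, the fibroblast marker PDGFRB, had 5.07 and 2.16 CPM in resistant libraries and 0.0542 and 0.187 CPM in untreated ones. Its log2 fold change was 4.86 (SE 0.70). With 2 and 7 expected counts in untreated libraries, it had enough reads only through the resistant ones, so no test is given for it. DCN, the other fibroblast marker, was at 0.069 CPM or less in every library. The endothelial marker CDH5 had 5.28 and 0.711 CPM in resistant libraries and 8.12 and 3.87 CPM in untreated ones. It was not called (log2 fold change −1.01, SE 0.95, adjusted p = 0.47 with edgeR). The part of PDGFRB and CDH5 in the results was not tested. The 5 epithelial markers summed to 2050 and 2620 CPM in resistant libraries and to 5630 and 3950 CPM in untreated ones, most of it KRT8 and KRT18. KRT8 (log2 fold change −1.23, adjusted p = 0.00268 with edgeR) and KRT18 (−0.88, adjusted p = 0.00692) were called lower. KRT19 (−0.5, adjusted p = 0.179) and EPCAM (−0.3, adjusted p = 0.641) overlapped between the groups and were not called. The part of this difference in the results below was not tested.

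The pentose phosphate pathway leaves glycolysis at glucose phosphate. Its oxidative branch reduces NADP to NADPH and ends in ribulose phosphate, and its non-oxidative branch interconverts sugar phosphates, so that ribose phosphate can be made for nucleotides or returned to glycolysis. NADPH feeds fatty acid and sterol synthesis and keeps glutathione and thioredoxin reduced. ME1 and IDH1 supply NADPH in the cytosol from malate and isocitrate. In pancreatic cancer cells the non-oxidative branch and malate-derived NADPH are known as outputs of oncogenic RAS signalling.

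The largest difference among the 8 genes was in ME1, which was 2.55-fold higher in resistant cells. TKT rose 1.64-fold, RPE fell to 0.70 of its untreated level, and the other 5 genes did not pass. In edgeR's quasi-likelihood test, adjusted by Benjamini-Hochberg over 16090 tested genes, 5463 genes (34%) had an adjusted p below 0.05, 16.6% of all tested genes being higher and 17.4% lower in resistant cells. Among the 8 genes 3 were called (37.5%), 2 higher and 1 lower, which is near that background. Without resistant replicate 1 the log2 fold changes were 1.41 for ME1, 0.6 for TKT and −0.39 for RPE. They were 1.37, 0.82 and −0.44 without untreated replicate 1. The number called fell in most fits that left out a library, among the 8 genes as among all genes. Groups were separate, with no overlap of values, in 6 of the 8 genes, against 70.9% of all tested genes. In 4 of them the resistant values were above (34.6% of all tested genes) and in 2 below (36.3%). The median log2 fold change of the 8 genes was 0.10, and that of all tested genes −0.01 with quartiles at −0.49 and 0.52. Each library is bulk RNA, so fewer cells with a transcript and less transcript per cell cannot be told apart.

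**Figure D1:**
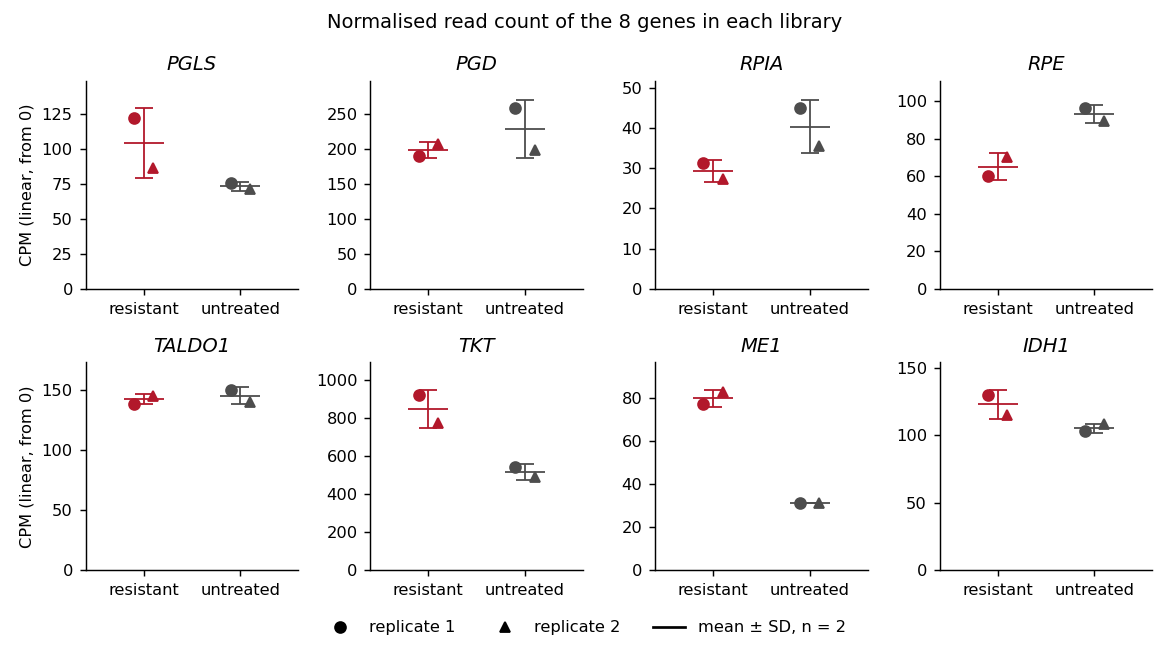
Normalised read count (CPM, linear axis from 0) of each gene in the resistant and untreated libraries, with replicate 1 as circles, replicate 2 as triangles and bars for mean ± SD (n = 2). ME1 and TKT lie higher and RPE lower in resistant libraries, while PGD and TALDO1 overlap between the groups.

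In the oxidative branch, PGLS (ENSG00000130313, chromosome 19) opens the phosphogluconolactone ring. PGLS had 122 and 86.4 CPM in resistant replicates 1 and 2, against 75.4 and 71.0 CPM in untreated replicates 1 and 2. Both resistant libraries lay above both untreated ones, and resistant replicate 1 stood 1.41 times above replicate 2. The log2 fold change was 0.51 (SE 0.18, 95% interval 0.10 to 0.91), which missed the threshold in edgeR's test (adjusted p = 0.055). Without resistant replicate 1 it was 0.25 (adjusted p = 0.461), and without resistant replicate 2 it was 0.73 and passed (adjusted p = 0.00713). PGD (ENSG00000142657, chromosome 1) oxidises phosphogluconate and yields NADPH and ribulose phosphate. PGD was at 191 and 207 CPM in resistant libraries and at 259 and 199 CPM in untreated ones. The groups overlapped, since untreated replicate 2 lay between the resistant libraries. Its log2 fold change of −0.20 (95% interval −0.59 to 0.19, adjusted p = 0.407) was 0.02 without untreated replicate 1.

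A pair of enzymes shares ribulose phosphate as their substrate. RPIA (ENSG00000153574, chromosome 2), the isomerase that makes ribose phosphate, had 31.2 and 27.3 CPM in resistant libraries and 44.9 and 35.6 CPM in untreated libraries. The resistant values were both below the untreated ones, yet the gene did not pass (log2 fold change −0.46, SE 0.19, 95% interval −0.88 to −0.05, adjusted p = 0.0816 with edgeR). The estimate was −0.26 without untreated replicate 1 (adjusted p = 0.486), with a span of −0.63 to −0.26 over the 4 libraries left out in turn.

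RPE (ENSG00000197713, chromosome 2), the epimerase that makes xylulose phosphate, had 59.9 and 70.2 CPM in resistant libraries, against 96.2 and 89.5 CPM in untreated ones. Every resistant value was below every untreated one. The log2 fold change was −0.51 (SE 0.16, adjusted p = 0.0293 with edgeR's test), and the call ended without resistant replicate 1 (−0.39, adjusted p = 0.241) or without untreated replicate 1 (−0.44, adjusted p = 0.165). RPE overlaps KANSL1L on the opposite strand, which had 351 and 494 expected counts in resistant libraries and 163 and 218 in untreated ones, where RPE itself had 1736 and 2372 against 3554 and 3349. The strand setting of the counting is not given in the sources used here, so reads in the overlap are uncertain. The promoter of RPE is shown because it is the gene of this group that fell, with bases in capitals where a motif searched for below was found:
RPE promoter, chr2:210002388-210002687, plus strand, GRCh38.p14: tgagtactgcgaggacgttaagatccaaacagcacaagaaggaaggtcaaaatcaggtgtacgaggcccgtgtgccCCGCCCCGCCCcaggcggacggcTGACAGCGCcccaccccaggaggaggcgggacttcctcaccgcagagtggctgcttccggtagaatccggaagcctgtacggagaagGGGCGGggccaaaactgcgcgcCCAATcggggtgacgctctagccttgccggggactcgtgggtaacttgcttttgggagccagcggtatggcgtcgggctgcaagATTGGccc

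TALDO1 and TKT, transaldolase and transketolase, carry the non-oxidative exchange of carbon units and link it to glycolysis. TALDO1 (ENSG00000177156, chromosome 11) had 138 and 145 CPM in resistant libraries and 150 and 140 CPM in untreated libraries. The groups overlapped, and the log2 fold change was −0.03 (SE 0.15, 95% interval −0.37 to 0.31, adjusted p = 0.894), or 0.01 without resistant replicate 1 and 0.04 without untreated replicate 1. TKT (ENSG00000163931, chromosome 3) had 918 and 775 CPM in resistant libraries, against 543 and 488 CPM in untreated ones. Both resistant libraries lay above both untreated ones, and replicate 1 was the higher in both groups. The log2 fold change was 0.72 (SE 0.17, 95% interval 0.34 to 1.09, adjusted p = 0.00938 with edgeR). The call ended without resistant replicate 1 (0.60, adjusted p = 0.0859) and without untreated replicate 2 (0.63, adjusted p = 0.0602), and it held without resistant replicate 2 (0.83) or untreated replicate 1 (0.82, adjusted p = 0.0331). The promoter of TKT, the pathway gene that rose, is printed in the same way:
TKT promoter, chr3:53255973-53256272, minus strand, GRCh38.p14: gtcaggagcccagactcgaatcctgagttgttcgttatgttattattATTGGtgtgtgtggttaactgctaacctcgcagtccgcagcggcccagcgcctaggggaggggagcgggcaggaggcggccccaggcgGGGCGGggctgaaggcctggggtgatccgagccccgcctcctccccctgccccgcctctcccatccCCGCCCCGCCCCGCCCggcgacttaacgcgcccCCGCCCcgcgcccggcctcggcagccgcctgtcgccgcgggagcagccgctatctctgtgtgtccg

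ME1 (ENSG00000065833, chromosome 6) decarboxylates malate to pyruvate and makes NADPH. It had 77.2 and 82.8 CPM in resistant libraries, against 31.4 and 31.4 CPM in untreated ones. The replicates of each group lay close together and the groups far apart. Means were 80.0 ± 3.94 CPM in resistant cells and 31.4 ± 0.0159 CPM in untreated cells (SD, n = 2). The untreated libraries had 1160 and 1175 expected counts, so their SD is below counting error and is no measure of precision. The log2 fold change was 1.35 (SE 0.16, 95% interval 1.0 to 1.69, adjusted p = 0.000209 with edgeR), which placed ME1 at rank 1382 from the top among the 16090 tested genes. It was called with each library left out in turn, with log2 fold changes of 1.3 to 1.41. IDH1 (ENSG00000138413, chromosome 2) oxidises isocitrate in the cytosol and peroxisomes with NADP as cofactor. It had 130 and 115 CPM in resistant libraries and 103 and 108 CPM in untreated libraries. The resistant values were the higher ones without overlap, by a margin that did not pass (log2 fold change 0.22, SE 0.16, 95% interval −0.12 to 0.57, adjusted p = 0.300). The antisense gene IDH1-AS1 overlaps IDH1 and had 66 and 45 expected counts in resistant libraries and 20 and 24 in untreated ones, where IDH1 had 3773 and 3887 against 3790 and 4034. The ME1 promoter is shown as that of the gene that differed most:
ME1 promoter, chr6:83431002-83431301, minus strand, GRCh38.p14: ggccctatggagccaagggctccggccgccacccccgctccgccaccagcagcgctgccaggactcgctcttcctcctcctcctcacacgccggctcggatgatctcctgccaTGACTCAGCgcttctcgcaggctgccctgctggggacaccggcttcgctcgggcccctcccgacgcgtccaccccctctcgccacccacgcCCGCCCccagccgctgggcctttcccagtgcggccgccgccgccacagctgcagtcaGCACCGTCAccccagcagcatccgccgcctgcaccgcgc

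**Figure D2:**
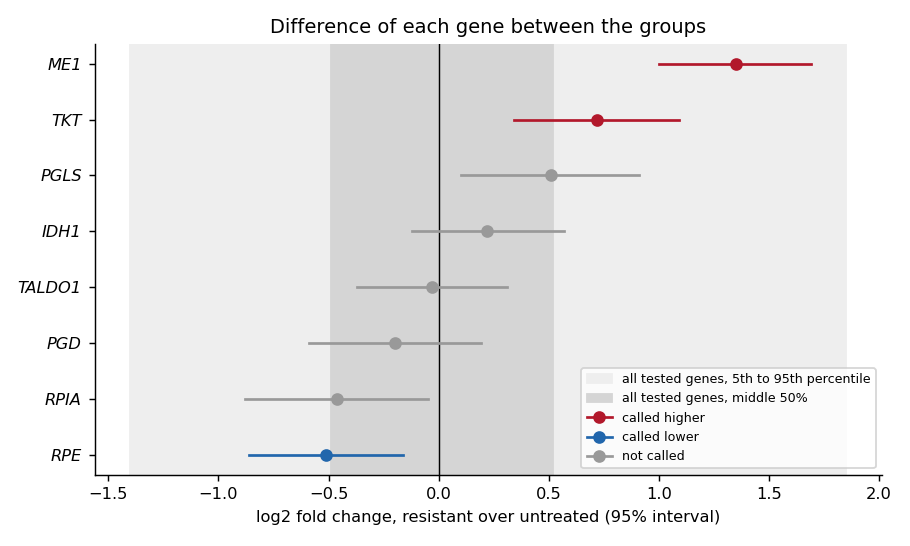
Log2 fold change of resistant over untreated cells for each gene (points) with its 95% interval (lines), coloured by call, over shaded bands for all tested genes. ME1 at 1.35 and TKT at 0.72 lie above the upper quartile of all tested genes (0.52), and RPE at −0.51 lies just below the lower quartile (−0.49).

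**Figure D3:**
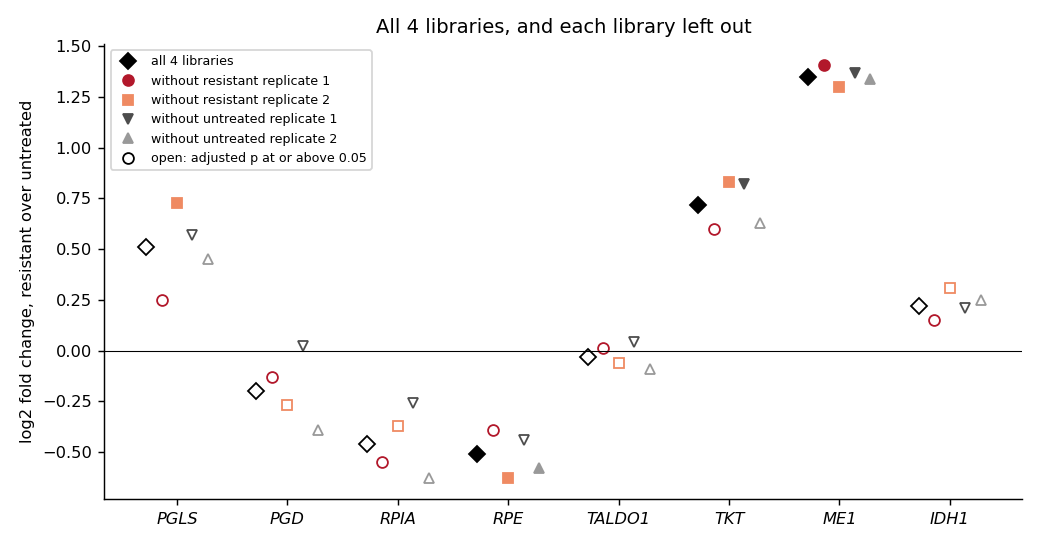
Log2 fold change of each gene with all 4 libraries (diamonds) and with each library left out (other symbols), filled where the adjusted p was below 0.05. ME1 is filled throughout, between 1.3 and 1.41, whereas TKT and RPE each have 2 open symbols and PGLS is filled only without resistant replicate 2.

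Levels between genes were compared per transcript length, as length-scaled levels (TPM, computed here) with the length of the principal transcript. TKT had 619 ± 38.8 TPM in resistant cells and 369 ± 5.78 TPM in untreated cells (SD, n = 2). PGD stood at 233 ± 27.2 TPM in resistant and 261 ± 32.1 TPM in untreated cells, and TALDO1 at 232 ± 20.3 TPM in resistant and 232 ± 2.75 TPM in untreated cells. PGLS had 222 ± 40.8 TPM in resistant cells and 153 ± 2.75 TPM in untreated cells. These were the 4 highest levels in both groups. IDH1 followed with 111 ± 3.35 TPM in resistant and 93.1 ± 8.89 TPM in untreated cells, and RPE with 56.1 ± 9.45 TPM in resistant and 77.9 ± 0.737 TPM in untreated cells. RPIA had 34.9 ± 1.33 TPM in resistant cells and 46.8 ± 4.82 TPM in untreated cells. The level of ME1 was 52.4 ± 5.56 TPM in resistant and 20.1 ± 1.22 TPM in untreated cells. TKT was the highest of the 8 in every library. PGD, TALDO1 and PGLS had overlapping values in resistant cells, as did RPE and ME1, while in untreated cells ME1 was the lowest of the 8 in both libraries. These values depend on which transcript is taken as the length, which the gene-level counts do not show.

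Ratios within a library do not depend on library scaling. The TPM ratio of TKT to TALDO1 was 2.96 and 2.40 in resistant libraries, against 1.62 and 1.56 in untreated ones, so the 2 partner enzymes differed unequally between the groups. TKT over RPE, whose product is a TKT substrate, was 13.1 and 9.42 in resistant libraries and 4.82 and 4.65 in untreated libraries. The ratio of ME1 to IDH1 was 0.429 and 0.521 in resistant libraries and 0.222 and 0.211 in untreated ones. ME1 over PGD, 2 cytosolic sources of NADPH, stood at 0.226 and 0.223 in resistant libraries and at 0.0679 and 0.0881 in untreated ones. RPE over RPIA overlapped between the groups, at 1.38 and 1.85 in resistant and 1.54 and 1.81 in untreated libraries. Summed over the 8 genes, the level was 1580 and 1540 TPM in resistant libraries and 1270 and 1230 TPM in untreated ones, most of the difference being TKT.

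Promoter sequences from RefSeq (GRCh38.p14), 250 bases before to 50 after the start, were on hand for all 8 genes as 9 entries, since IDH1 has 2 starts. Both strands were searched for the antioxidant response element core TGACNNNGC, to which the transcription factor NRF2 binds, the AP-1 motif TGANTCA, which can overlap it, the E-box CACGTG, the GC box GGGCGG and the CCAAT box. The TGACNNNGC core was found at 4 of the 9 starts, those of ME1, PGD, RPE and 1 start of IDH1, and in 13.3% of 35116 promoters of this length. In ME1 it read TGACTCAGC at position −137, where it holds an AP-1 motif that no other of the 9 entries had (7.71% of all promoters), and a second core lay on the opposite strand at position 12. RPE also held the core, at position −151. The entries of TKT, PGLS, RPIA and TALDO1 held no match to it. The GC box was present in all 9 entries, against 45% of all promoters, and TKT had 5 matches on its 2 strands. CCAAT was found at 6 starts (34.6% of all promoters) and the E-box at 0 (7.26%). These are matches of letters and not binding measurements, and sequence outside the 300 bases of each entry was not searched. The part of these motifs in the differences was not tested.

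The position of each gene was set beside its neighbours, as neighbouring genes can differ together in selected populations. Most genes around ME1 had lower log2 fold changes than ME1. Its 20 nearest tested protein-coding genes had a median log2 fold change of −0.08, and 3 of them exceeded 1.35. The neighbours of TKT had a median of −0.29 with 3 of 20 above TKT, and those of RPE had one of 0.22 with 3 of 20 below RPE. Among all tested genes, 91.4% lay below ME1, 80.8% below TKT and 24% below RPE. These counts are thus near what the ranks alone give and cannot set a gene apart from its surroundings. PGLS stood in the middle of its surroundings, with a neighbour median of 0.46 beside its own 0.51 and a chromosome 19 median of 0.04. PGD (−0.20) was also close to its neighbours (−0.27). TALDO1 had −0.03 on a chromosome whose median was 0.42, with 15 of its 20 neighbours above it. RPIA, which was not called, had −0.46 beside a neighbour median of 0.14, with 3 of 20 below it as for RPE. IDH1 had 0.22 beside a neighbour median of 0.02.

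**Figure D4:**
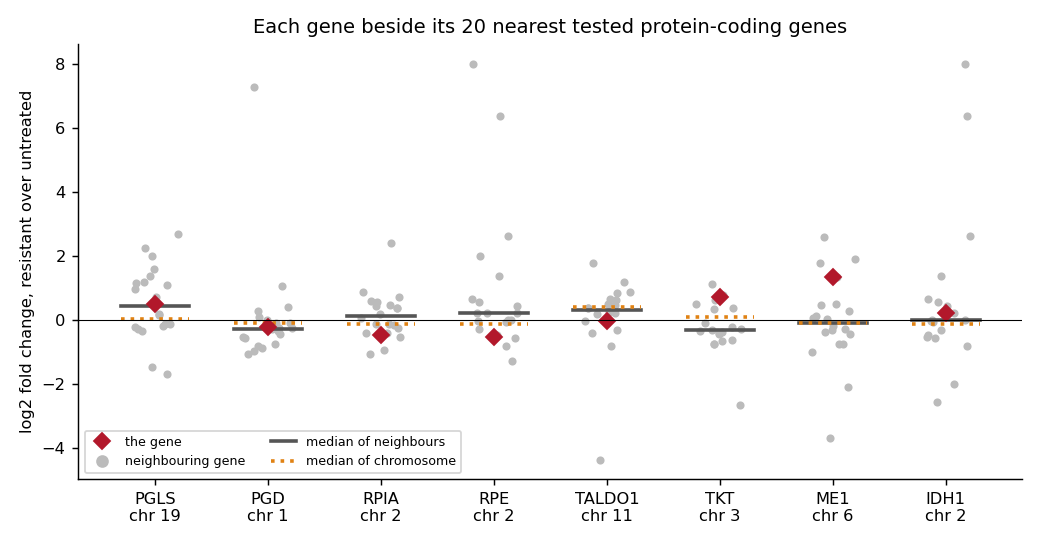
Log2 fold change of each gene (diamonds) beside its 10 nearest tested protein-coding genes on either side (grey points), with their median (solid line) and that of the chromosome (dotted line). Neighbour medians were −0.08 for ME1, −0.29 for TKT and 0.22 for RPE, with 3 of 20 neighbours above ME1, 3 above TKT and 3 below RPE. RPIA, which was not called, had a neighbour median of 0.14 and 3 of 20 below it. PGLS and PGD lie close to their neighbour medians.

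In all, 5 lists of related genes were read in the same fit. Of 64 tested genes on them 18 were higher and 10 lower in resistant cells, a total of 28 (43.8%). Over all tested genes 34% were called, 16.6% higher and 17.4% lower. The counts of each list below are to be read beside those shares, as several are near them. The lists were chosen with earlier results of these data known, so a share above 34% is no support for them. Fewer genes were called without untreated replicate 1, among the listed genes as among all genes. Values given first in parentheses below are log2 fold changes of resistant over untreated cells. The other pentose and ribose phosphate genes, which salvage, isomerise or activate pentoses, had 1 of 10 tested genes higher and 3 lower, with a median log2 fold change of −0.36. PRPSAP2, a regulatory partner of phosphoribosyl pyrophosphate synthetase, had 25.2 and 30.2 CPM in resistant libraries and 47.4 and 42.6 CPM in untreated ones (−0.70, SE 0.18, adjusted p = 0.013). PRPS1, the synthetase that activates ribose phosphate for nucleotide synthesis, had 68.7 and 80.1 CPM in resistant libraries and 117 and 107 CPM in untreated ones (−0.59, SE 0.16, adjusted p = 0.0166 with edgeR). Both calls ended without resistant replicate 1 or untreated replicate 1, with adjusted p up to 0.149. PRPS2, its isoform, had a log2 fold change of −0.09 (adjusted p = 0.707). PGM2, which moves phosphate on pentoses, also fell (−0.77, adjusted p = 0.0228) and lost its call in the same fits; it was named after its value was seen. The gene that rose was H6PD, which makes NADPH inside the endoplasmic reticulum (0.57, adjusted p = 0.0348), named after its value was seen and called in 1 of the 4 fits that left out a library.

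Among the other enzymes that make NADPH and the NAD kinases, 3 of 10 were higher and 2 lower, with a median of 0.15. NADK2, the mitochondrial NAD kinase, had 102 and 111 CPM in resistant libraries, against 53.2 and 48.2 CPM in untreated ones (1.07, SE 0.16, adjusted p = 0.000763 with edgeR). MTHFD1, the cytosolic folate enzyme with an NADP-dependent dehydrogenase, had 116 and 125 CPM in resistant libraries, against 269 and 235 CPM in untreated ones (−1.06, SE 0.16, adjusted p = 0.00108). Both were called with every library left out in turn. MTHFD2, its mitochondrial relative, did not pass (−0.07, adjusted p = 0.785). The other 3 called genes, ME3 and ALDH1L2 (higher) and MTHFD2L (lower), were named after their values were seen. ME3, the mitochondrial NADP malic enzyme, was near the limit of detection at 1.48 and 0.859 CPM in resistant libraries and 0.0542 and 0.0801 CPM in untreated ones. With 2 and 3 expected counts in untreated libraries, ME3 had enough reads to be tested only through the resistant ones. A stricter filter (1 CPM in 2 libraries) removed it. ME3 is counted among the 3 higher genes of this list and the 18 of all 5 lists. The calls of ALDH1L2 (adjusted p = 0.0259) and MTHFD2L (adjusted p = 0.026) each ended in 2 of the 4 fits that left out a library, untreated replicate 1 among them, with adjusted p up to 0.179.

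Upper glycolysis shares hexose and triose phosphates with the pathway. The list of its enzymes and regulators, with GAPDH from the step that follows, had 3 of 14 tested genes higher and 2 lower, median −0.07. ALDOC, an aldolase, had 46.0 and 32.9 CPM in resistant libraries and 5.77 and 10.0 CPM in untreated libraries (2.32, SE 0.29, adjusted p = 0.000565 with edgeR). PFKFB2, which makes an activator of phosphofructokinase, rose by 0.92 (adjusted p = 0.00789) but not without untreated replicate 1 (adjusted p = 0.0572). Among the other calls, PFKFB3 (0.70, adjusted p = 0.0137), a relative of PFKFB2, and TPI1 (−0.72, adjusted p = 0.0167), the triose phosphate isomerase, were named after their values were seen, and each ended in 2 of the 4 fits that left out a library (adjusted p up to 0.182). GAPDH did not pass (−0.08, adjusted p = 0.737). TIGAR, a phosphatase known to divert sugar to the pentose phosphate pathway, was named after its value was seen. It had 9.14 and 9.59 CPM in resistant libraries and 19.3 and 13.9 CPM in untreated ones (−0.83, adjusted p = 0.0254), a call that ended without resistant replicate 1 or untreated replicate 1 (adjusted p up to 0.244).

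Enzymes of sterol and fatty acid synthesis that consume NADPH had the highest median of the 5 lists, 1.01, with 6 of 14 higher and 1 lower. CYP51A1, a sterol demethylase, had 357 and 198 CPM in resistant libraries and 94.1 and 59.2 CPM in untreated ones (1.86, SE 0.34, adjusted p = 0.00802 with edgeR). FASN, the fatty acid synthase, had 2560 and 1250 CPM in resistant libraries and 1080 and 630 CPM in untreated ones. It did not pass (1.16, SE 0.42, adjusted p = 0.0876 with edgeR). With a replicate block in the same test FASN passed (1.12, adjusted p = 0.000754), though the labels do not pair the replicates. The member that fell was LBR, a sterol reductase of the nuclear envelope, named after its value was seen (−0.79, adjusted p = 0.0123), and not called without resistant replicate 1 or untreated replicate 1 (adjusted p up to 0.0944). Replicate 1 was the higher in 12 of the 14 genes in resistant libraries (median ratio 1.46) and in 13 of 14 in untreated ones (1.42). Among the 8 genes it was the higher in 4 in resistant libraries (median ratio 1.04) and in 6 in untreated ones (1.08). This split was not counted over all tested genes. ME1 did not share the split of the sterol and fatty acid list, with a ratio of 0.933 between the resistant libraries and 1.0 between the untreated ones.

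Targets of NRF2 and NADPH-dependent redox genes had 5 of 16 higher and 2 lower, with a median of −0.02. HMOX1, which degrades heme, had 116 and 118 CPM in resistant libraries and 24.8 and 27.3 CPM in untreated ones (2.17, SE 0.16, adjusted p = 1.08e-05 with edgeR). OSGIN1, an oxidative stress response gene, had 89.0 and 51.6 CPM in resistant libraries, against 6.15 and 5.74 CPM in untreated ones (3.56, SE 0.27, adjusted p = 3.12e-05). The other 3 that rose were the ferritin chains FTL (1.31) and FTH1 (1.62), which store iron, and the biliverdin reductase BLVRB (0.87), named after their values were seen. The 2 that fell were GCLM and GSR, both named after their values were seen. GCLM, the modifier subunit of the enzyme that starts glutathione synthesis, had 52.6 and 52.9 CPM in resistant libraries and 213 and 157 CPM in untreated ones (−1.81, SE 0.18, adjusted p = 9.2e-05). GSR, which spends NADPH to reduce glutathione, had 54.2 and 56.9 CPM in resistant libraries, against 88.5 and 97.9 CPM in untreated ones (−0.75, SE 0.15, adjusted p = 0.00457 with edgeR). NQO1, a quinone reductase, did not pass (0.44, SE 0.16, adjusted p = 0.055).

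**Figure D5:**
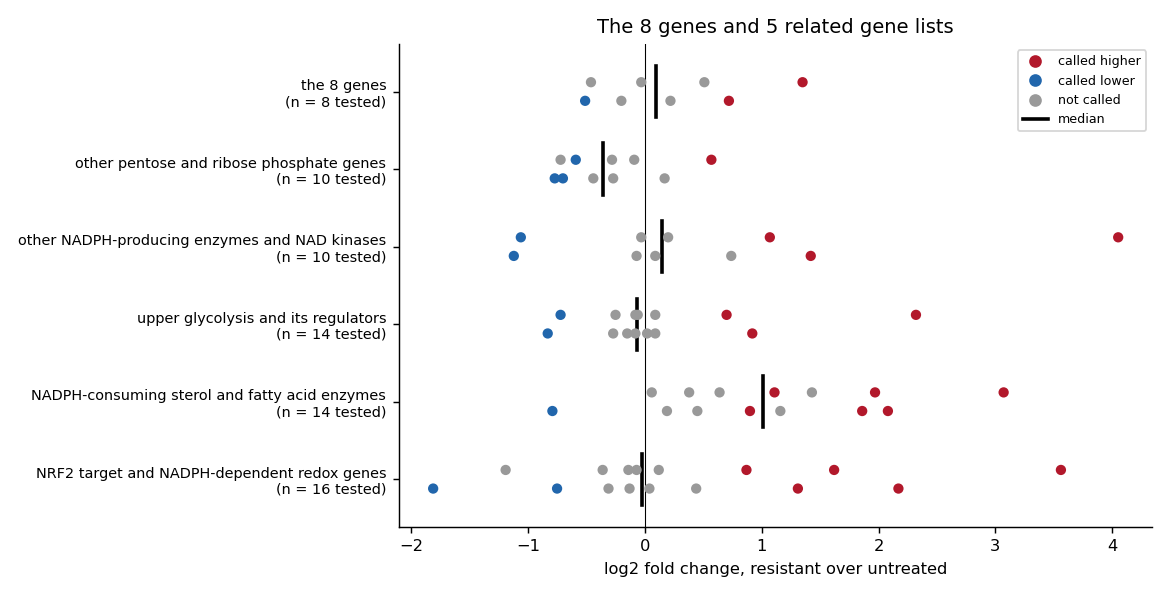
Log2 fold change of resistant over untreated cells for the 8 genes and the tested genes of 5 related lists (points, coloured by call), with the median of each as a bar. Sterol and fatty acid enzymes centre at 1.01, while the other pentose and ribose phosphate genes centre at −0.36.

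The genes whose profile over the 4 libraries was most like that of ME1 and TKT were sought among 9340 protein-coding genes of at least 10 CPM, by Euclidean distance of centred log2 CPM. Nearest to ME1 were COPB1 (distance 0.0789), MATCAP2 (0.0853) and NADSYN1 (0.0873). COPB1 had 330 and 335 CPM in resistant libraries and 127 and 125 CPM in untreated ones. Nearest to TKT were TMSB4X (0.0111), P4HB (0.0425) and COLGALT1 (0.0464), and TMSB4X had 6280 and 5320 CPM in resistant libraries against 3740 and 3320 CPM in untreated ones. With 4 libraries in 2 groups, many genes have a similar profile.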

How the data were processed

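Each sample's deposited table holds RSEM-type expected counts, per the file headers, and the authors left them unscaled. The submitters' processing notes name STAR 2.7.2b, RSEM 1.3.1 and GRCh37, and the annotation release and strand setting are not given in the sources used here. Expected counts were rounded to whole numbers. Symbols came from a gene name table that named 39538 of the 57773 identifiers. GENCODE 29 (GRCh38) gave only chromosome, gene order, overlaps, gene class and the length of the longest APPRIS principal transcript, from which TPM were computed.

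Genes were filtered with filterByExpr, which kept 16090, and scaled by TMM (factors 0.962 to 1.05). Groups were taken from the titles and compared by edgeR (4.0.16, R 4.3.3) with its robust quasi-likelihood test and no replicate block, using Benjamini-Hochberg adjustment over all tested genes and a threshold of 0.05. SE is the log2 fold change divided by the square root of F. Intervals are at 95%. The test was checked on simulated counts. Nothing states that replicates were cultured apart, so p-values measure only the spread among the 4 libraries, which may be technical. Depth adds counting error (3 counts correspond to 0.0788 to 0.0995 CPM). The fit was repeated with upper-quartile or RLE scaling, with a stricter filter (1 CPM in 2 libraries) or none, with a replicate block, without each library (the lone library of a group then being assumed to vary like the other group), at a threshold of 0.01, and with DESeq2 1.42.0 and limma-voom 3.58.1. The newer quasi-likelihood form of edgeR was added after seeing the data.

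The members and lists were chosen with earlier results of these data known. Named genes were the 8 members, up to 2 called genes per list with the smallest adjusted p, the gene not called with the highest level in each list, and the 3 genes most like each of the 2 members with the smallest adjusted p. Others are marked as named after their values were seen. Some genes that the rule names are not reported here.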

Additional observations from a re-analysis of the deposited data

How the results depend on the processing

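Over the 8 genes and 13 alternatives each, 91 of 104 values kept their direction and side of the threshold, 5 lost the call, 5 gained it and 3 changed direction. ME1 was called under all 13 (1.3 to 1.41). The changes of direction were PGD without untreated replicate 1 (0.02, with −0.39 as the lowest value of any library left out) and TALDO1 without resistant replicate 1 (0.01) or untreated replicate 1 (0.04, the lowest being −0.09), neither gene being called in any fit. RPE lost its call also at a threshold of 0.01. PGLS gained one with upper-quartile scaling (adjusted p = 0.0455), no filter (0.0225), the stricter filter (0.0402), the replicate block (0.0453) and without resistant replicate 2. With libraries left out, 1 (without resistant replicate 1) to 4 of the 8 genes, 2832 (without untreated replicate 1) to 5041 of all genes and 18 to 31 listed genes were called, against 3, 5463 and 28 with all 4 libraries. At a threshold of 0.01 there were 2832 genes and 15 listed genes called. The replicate block gave 4 of the 8 genes, 5275 of all genes and 32 listed genes, and deviations of same-numbered libraries correlated at −0.0604 across genes, so the numbers are not shown to pair the samples. Of the listed genes named as not called, NQO1 passed under 5 of 12 alternatives and FASN under 3. Scaling moved the median of all genes by less than 0.1 in log2. The smallest count of the 8 genes in any library was 905. The cause of the lost calls was not tested.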

Other observations

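Among the enzymes related to NADPH supply, NNT, the mitochondrial transhydrogenase that makes NADPH from NADH, differed most between the resistant libraries and was chosen after its values were seen. It had 8.63 CPM in resistant replicate 1 and 0.563 CPM in resistant replicate 2, against 2.63 and 2.86 CPM in untreated replicates 1 and 2. The untreated values lay between the resistant ones. Its log2 fold change with all 4 libraries was 0.74 (SE 1.18, adjusted p = 0.681 with edgeR), and it came to 1.65 when resistant replicate 2 was left out, or −2.26 when resistant replicate 1 was. Those fits rest on a single resistant library, and the gene was chosen for the gap between the resistant libraries, so no test is given for them.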
